A study of Mus musculus with 23 samples.

Results

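Complex I of the respiratory chain oxidises NADH, passes the electrons to ubiquinone and pumps protons across the inner mitochondrial membrane. It is built around core subunits shared with bacteria, of which the membrane-bound ones are encoded in mitochondrial DNA and the others in the nucleus, and accessory subunits that surround them. In mammalian oocytes mitochondria are inherited with the egg, and the mRNAs of nuclear-encoded subunits are first maternal stores and later products of the embryo's own genome.

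The nuclear-encoded subunit genes were taken from the gene symbols alone, as every symbol of the Nduf a, ab, b, c, s or v series in both count tables, without pseudogene symbols ending in -ps and without the assembly factors (Ndufaf). The rule found 42 gene identifiers with 41 distinct symbols among 56196 genes. Of these, 38 were protein-coding, 3 (Ndufa11b, Ndufb4c and Ndufs6b) were processed pseudogenes in GENCODE M21, and 1 was an additional identifier for Ndufs3 that had no gene model there and no read in any library. The 38 coding genes comprised 7 core subunits, 9 accessory subunits of the matrix arm, 9 of the proximal and 11 of the distal membrane arm, and 2 genes that carry the name alone. Those 2 are Ndufa4, now assigned to complex IV, and its paralog Ndufa4l2. Ndufb1 is represented in the tables as Ndufb1-ps and so fell outside the rule. All 38 coding members passed the low-count filter in oocytes and in embryos, as did the 3 pseudogenes in oocytes and 2 of them in embryos.

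The samples were mouse germinal vesicle (GV) oocytes, which are fully grown and held in meiotic prophase, and embryos at the 1-cell and 2-cell stage, labelled wild-type (WT) or Eif4enif1+/- (here het). Eif4enif1 encodes 4E-T, a partner of the cap-binding protein eIF4E found in cytoplasmic granules of stored mRNA. GV oocytes were split by T&T-seq into a transcriptome (all poly(A) RNA) and a translatome (ribosome-bound RNA, captured with RiboLace), with 2 libraries for each fraction of each genotype. Embryo RNA-seq had 3 libraries for each of 5 groups. At the 1-cell stage there was a WT and a het group, both untreated. At the 2-cell stage there was again a group of each genotype, kept in vitro for 24 h. The fifth group held het embryos that were still at 1 cell after 24 h in vitro (arrested). The labels give no age and do not say whether an embryo's genotype is its own or its mother's.

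Library totals ran from 3.62 M to 50.5 M counts in oocytes and from 5.60 M to 40.4 M counts in embryos. Eif4enif1 was measured at 217 and 222 CPM (counts per M counts of the TMM-scaled library total) in the WT and 87.3 and 96.1 in the het GV transcriptome, at 134 to 178 in WT and 69.2 to 72.1 in het 1-cell embryos, and at 55.3 to 76.3 in WT and 38.2 to 54.9 in het 2-cell embryos. Arrested het embryos had 109.6, 28.5 and 62.7 CPM, so that library 1 lay above every WT 2-cell library and below every WT 1-cell library. Summed oocyte markers stood at 16980 CPM or more in every GV library. Several libraries stood apart. Het 1-cell libraries 1 and 3 had a flat profile, in which the 100 most abundant genes held 6.34% and 5.53% of counts, against 32.1% to 38.05% in the other 1-cell libraries. Het 2-cell library 1 had the lowest value of all 2-cell libraries for 31 of the 38 coding members, and arrested library 1 held 65.7 CPM of 2-cell-stage markers against at least 1487 CPM in the other arrested libraries. WT translatome library 1 had a median of 50.2 CPM over the coding members, against 86.2 CPM in library 2.

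Every group of GV libraries expressed nearly the whole set. In the WT transcriptome 37 of 38 coding members reached 10 CPM in both libraries, the exception being Ndufa4l2, and together they made up 5467 and 4773 CPM. Levels per kilobase of exon were highest for Ndufa2, a thioredoxin-fold subunit of the matrix arm, at 476 ± 88.5 CPM per kb (mean ± SD, n = 2). Ndufb11 of the distal membrane arm followed at 447 ± 69.2, a difference within the spread of the 2 libraries, and Ndufa8, a cysteine-rich subunit on the intermembrane-space side of the membrane arm, was next at 268 ± 17.98. At the other end stood Ndufb2 at 10.7 ± 1.38, Ndufa4l2 at 4.06 ± 0.995 and the core subunit Ndufs1 at 2.53 ± 0.681 CPM per kb. Levels per kb rest on the union of annotated exons, which is 8086 bases for Ndufs1 against a median of 1532 over the coding members, so a gene whose annotated exons are not all used is listed low. Exons of 17 of the 38 coding members overlap those of another gene, among them Ndufs1, Ndufs3, Ndufa2, Ndufa11, Ndufab1, Ndufb6, Ndufb9 and Ndufb11. Without a stated use of strand, reads from the shared bases cannot be told apart, and these genes' values carry that limit.

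In WT 1-cell embryos the median coding member was at 13.4, 11.5 and 9.41 CPM in the 3 libraries, while 4 members carried most of the sum. Ndufa10, Ndufab1, Ndufa4 and Ndufb6 together made up 1045, 1357 and 1123 CPM, and all other coding members 732, 751 and 640 CPM. Those 4 made up 877 and 775 CPM in the WT GV transcriptome, where the other members summed to 4590 and 3998 CPM. By the WT 2-cell stage the 4 genes were at 478 to 534 CPM and the others at 1795 to 2023 CPM. Oocyte and embryo tables were scaled separately, so levels across that boundary are a description and were not tested.

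**Figure D1:**
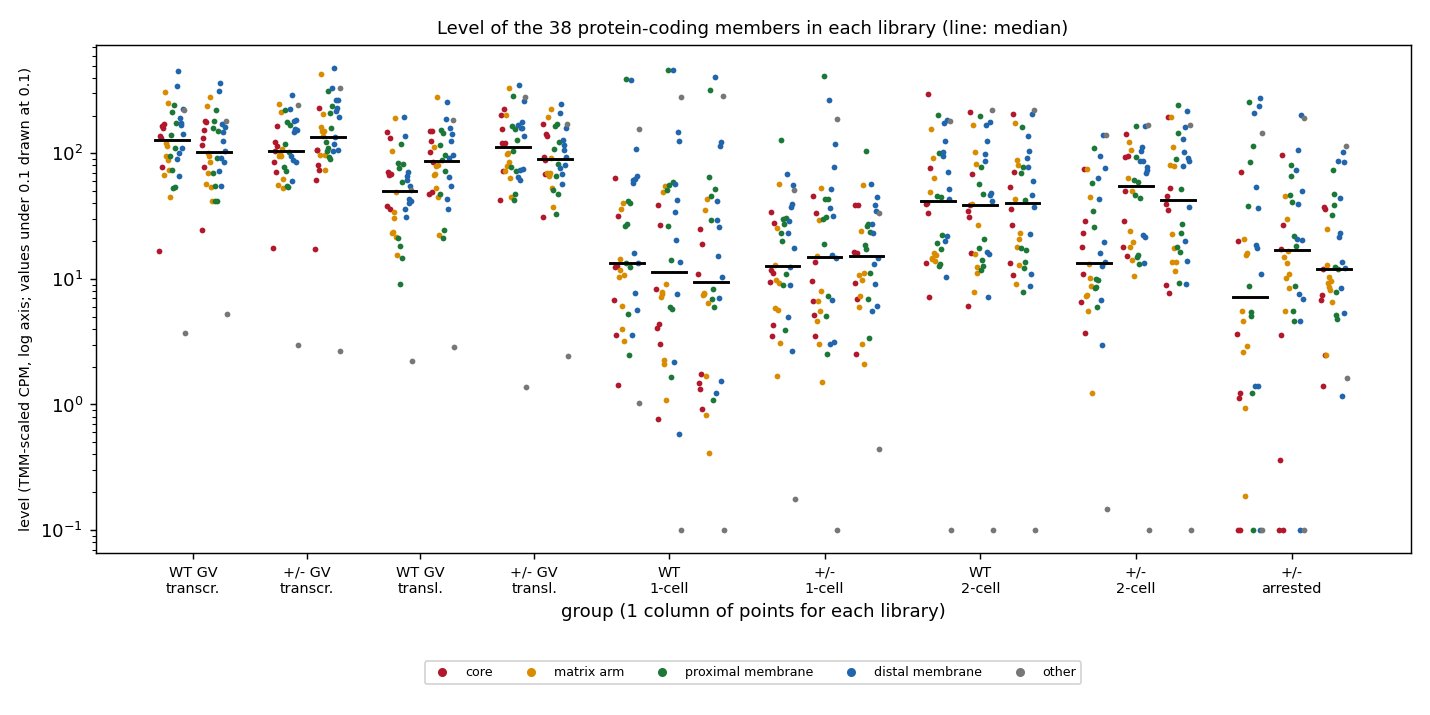
Level of each of the 38 protein-coding members in each library on a log axis (TMM-scaled CPM, values under 0.1 drawn at 0.1), coloured by place in complex I, with a black line at the median of each library. The GV libraries are compact around medians from 50.2 to 136 CPM, and the 1-cell libraries spread widely around medians from 9.41 to 15.3 CPM. All 2-cell libraries but het library 1 have medians from 38.8 to 54.9 CPM.

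The first comparison asked how the ribosome-bound share of these mRNAs stood against total mRNA in WT oocytes. Complex I transcripts were mostly lower in the translatome. Among the 41 members tested 15 were lower and 1 was higher at an adjusted p under 0.05 (edgeR quasi-likelihood test, Benjamini-Hochberg over all genes), where 5.64% of all 22409 genes were called lower and 8.95% higher. The median log2 difference of the 38 coding members was -0.84, beside -0.04 for all genes. For 30 of the 38 both translatome libraries lay below both transcriptome libraries, a pattern that 31.6% of all genes showed.

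The lower members came from all arms. Ndufv2, a core subunit with an iron-sulfur cluster at the NADH-oxidising tip, was at 171 and 178 CPM in the transcriptome and at 68.8 and 84.7 CPM in the translatome, with no overlap. Its log2 difference was -1.19 ± 0.25 (SE, adjusted p = 0.0106, edgeR). Ndufa2 fell from 308 and 237 CPM to 105 and 112 CPM (-1.33 ± 0.29, edgeR adjusted p = 0.0109). Ndufa3, a small membrane-arm subunit, had the largest difference among coding members at -1.65 ± 0.38, from 52.5 and 41.6 CPM to 9.06 and 21.2 CPM. Its translatome libraries lie apart from each other, and both lie under both transcriptome libraries.

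Ndufb4 and Ndufb10 of the distal membrane arm, Ndufv3 and Ndufa7 of the matrix arm and Ndufc1 of the proximal membrane arm were also called lower, with log2 differences from -1.34 to -1.04. Ndufb7, Ndufs8, Ndufa8, Ndufs5 and Ndufa1 completed the coding genes called lower, and the pseudogenes Ndufb4c (-1.57 ± 0.27) and Ndufs6b (-1.65 ± 0.44) were the other two. Ndufb4c stood at 52.5 and 45.1 CPM in the transcriptome, where the coding members had medians of 127 and 103 CPM. A processed pseudogene is a spliced copy of its parent, and the sources used here do not state how reads shared by Ndufb4 and Ndufb4c, by Ndufs6 and Ndufs6b or by Ndufa11 and Ndufa11b were counted. The values of both genes of each pair are uncertain.

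The core subunits did not move as 1 block. Ndufs1 (chr1:63143596-63176833, GRCm38, minus strand), the largest core subunit and the carrier of most iron-sulfur clusters of the NADH module, was the single member called higher in the WT translatome. It rose from 16.5 and 24.3 CPM to 37.8 and 47.7 CPM (log2 1.06 ± 0.28, edgeR adjusted p = 0.0255). Ndufv1, which binds FMN and accepts electrons from NADH, was at 158 and 182 CPM against 134 and 151 CPM (-0.26 ± 0.29, not called). Of the other core subunits, Ndufs8 and Ndufv2 were called lower, and Ndufs3 and Ndufs7 had log2 differences of -0.61 ± 0.26 and -0.73 ± 0.32 that were not called.

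In het oocytes the same contrast of fractions gave 2 of 41 members higher and 0 lower, where 6.19% of all genes were called higher and 1.91% lower. Ndufs1 was again higher, at 17.5 and 17.4 CPM in the transcriptome against 42.7 and 30.9 CPM in the translatome (log2 1.08 ± 0.29, edgeR adjusted p = 0.0396). Both of its translatome libraries exceeded both transcriptome libraries. Ndufv1 was at 114 and 73.3 CPM against 226 and 143 CPM (0.98 ± 0.29, edgeR adjusted p = 0.0557). The median over the coding members was -0.46, beside 0.04 for all genes.

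Both sets of calls changed when single libraries were left out. A group then has 1 library, which is assumed to vary like the libraries of the other groups. Without WT translatome library 1 the WT contrast called 4 members, without WT transcriptome library 1 it called 2, and without WT translatome library 2 it called 25. A fit of the WT libraries alone called 6, all lower, and Ndufs1 was not among them. The 2 het calls were lost without het translatome library 1 or het transcriptome library 2.

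**Figure D2:**
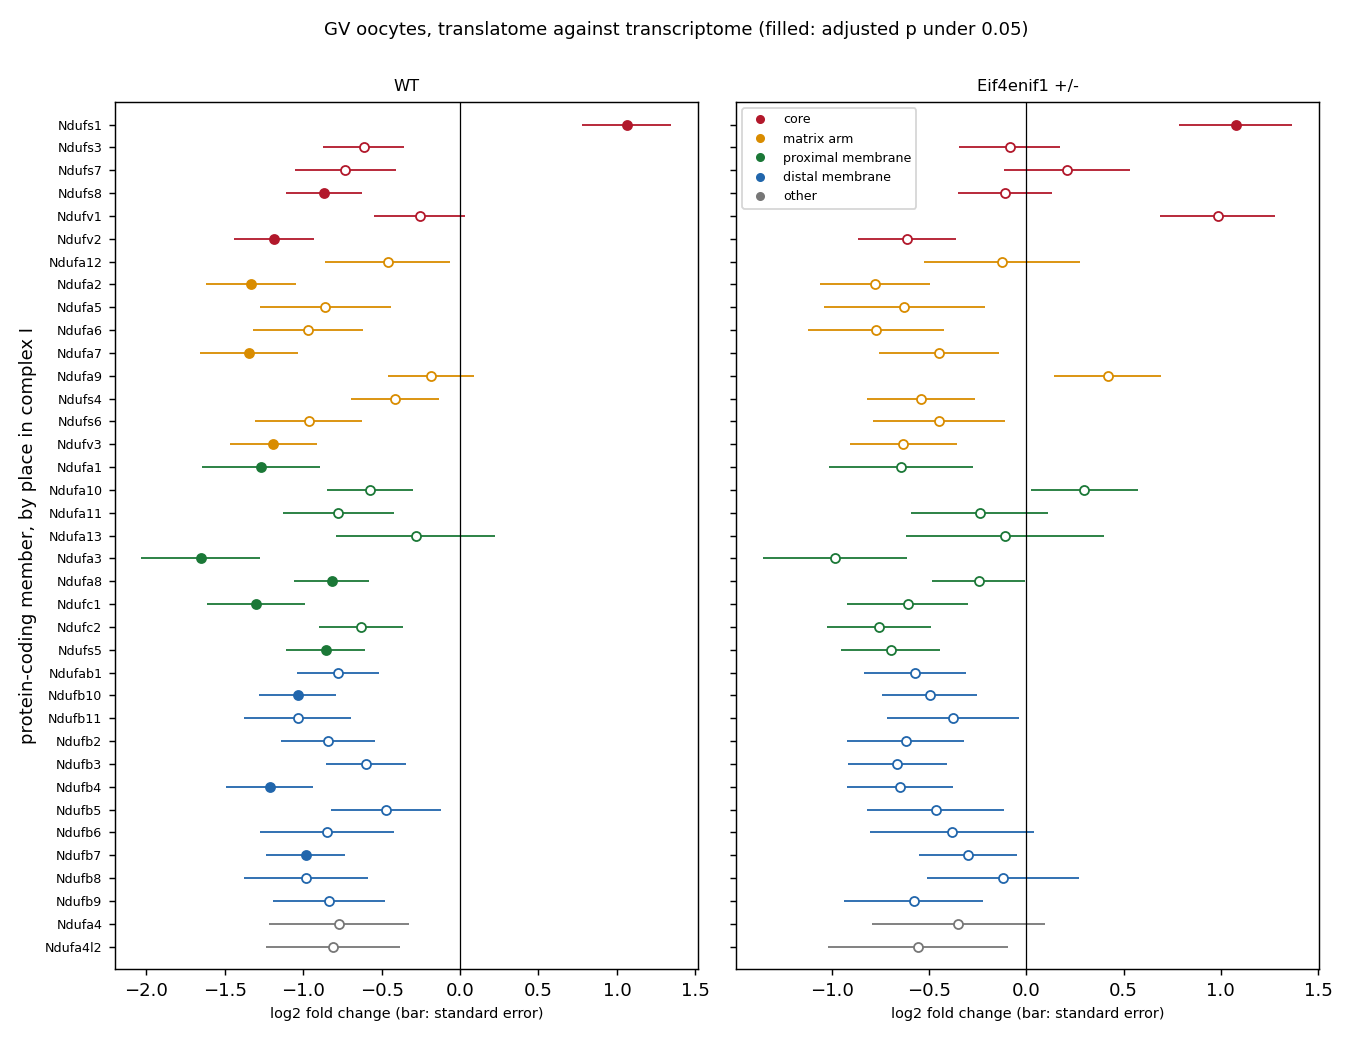
Log2 fold change of translatome against transcriptome for 37 coding members (point, with its standard error as a bar) in WT oocytes on the left and het oocytes on the right, coloured and ordered by place in complex I. Filled points passed an adjusted p of 0.05, which 14 coding members did in WT, 13 of them on the lower side, and Ndufs1 is the filled point drawn for het oocytes.

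Other mitochondrial genes of the WT contrast are given for scale. The nuclear-encoded subunits of complexes II to V had 41 symbols and 44 gene identifiers, of which 42 were tested. Of these 42 identifiers 15 were lower and 1 higher in the translatome, with a median of -0.81. Of 17 complex I assembly factors 4 were lower, and of the 7 mitochondrially encoded subunits 2 were.

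The exon length of members bears on this contrast, because short genes as a whole were lower in the WT translatome. Coding genes with at most 1000 bases of exon had a median log2 difference of -0.67 over 646 genes, and the 9 members of that length had -0.86. Among genes of 1000 to 2000 bases the medians were -0.43 for 2042 genes and -0.86 for 15 members. Over 4000 bases they were 0.30 for 7980 genes and -0.78 for 5 members. The part that length has in the members' values was not tested.

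Next, het oocytes were compared with WT oocytes within each fraction. The translatome comparison shares its WT translatome libraries with the contrast of fractions in WT oocytes. Low values in those libraries make members lower in that contrast and higher in het here. The results of these comparisons are therefore not independent of each other. In the translatome 3 of 41 members were higher in het and 0 lower, where 2.61% of all genes were called higher. Both coding genes among them were accessory subunits. Short genes were called more often than all genes. Of coding genes with at most 1000 bases of exon 7.74% were called higher, and of those with 1000 to 2000 bases 4.95%. Of the coding members of these lengths 0 of 9 and 1 of 15 were called higher. Ndufc1 (chr3:51404677-51408988, minus strand) was at 14.6 and 24.5 CPM in WT and at 47.2 and 47.9 CPM in het (log2 1.29 ± 0.31, edgeR adjusted p = 0.0371), and Ndufv3, which sits beside Ndufv1 and Ndufv2 in the NADH module, at 15.6 and 22.5 against 44.7 and 37.2 CPM (1.11 ± 0.28, edgeR adjusted p = 0.0398). Neither overlapped between genotypes. The third was the pseudogene Ndufb4c, at 16.2 and 16.7 against 38.9 and 33.4 CPM (1.14 ± 0.26, edgeR adjusted p = 0.0312), while its parent Ndufb4 had 65.5 and 92.0 against 158 and 128 CPM and was not called.

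The remaining coding members leaned the same way without passing the test. Of the 38, 35 had a log2 change above 0, and the median was 0.68 beside 0.04 for all genes. In 21 of the 38 both het libraries lay above both WT libraries, which was so for 28.4% of all genes. Coding genes with at most 1000 bases of exon had a median of 0.32, and those with 1000 to 2000 bases one of 0.25. The coding members of these lengths had medians of 0.59 and 0.83. The part that length has in these values was not tested. By place in the complex the median was 0.83 for the matrix arm accessory subunits, 0.69 for the proximal and 0.75 for the distal membrane arm, and 0.34 for the core. Members below 0 were Ndufs1, Ndufab1 and Ndufa4l2. The calls themselves were lost when either het library or WT translatome library 1 was left out, and rose to 14 without WT translatome library 2.

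Other parts of the complex in the het translatome are given for scale. All 7 mitochondrially encoded subunits were called higher, with a median log2 change of 1.89. In the transcriptome all 7 were above 0 as well and 3 were called higher, with a median of 1.32. In the translatome 0 of 17 assembly factors were called and their median was 0.29. Among the gene identifiers of nuclear-encoded subunits of complexes II to V 6 of 42 were called higher and the median was 0.74. Most, but not all, markers of granulosa cells, the follicle cells next to the oocyte, were higher in het too. Their sum was 755 and 1097 CPM in the het and 295 and 495 CPM in the WT translatome. There 20 of 22 tested markers were above 0 on the log2 scale and 5 were called higher. In the transcriptome the sum was 424 to 507 CPM against 237 to 358 CPM, with 15 of 22 markers above 0, 7 below 0 and 5 called higher. Inha, which encodes an inhibin subunit, was at 454 to 741 CPM in the het and 90.1 to 266 CPM in the WT translatome. Amhr2, the receptor of anti-Müllerian hormone, was at 22.5 to 27.4 against 4.83 to 10.4 CPM and Fst, which encodes follistatin, at 27.9 to 39.5 against 4.73 to 9.40 CPM, all without overlap. Foxl2 was at 0.836 to 1.67 against 0.576 to 1.56 CPM and Fshr at 3.50 to 4.23 against 2.88 to 3.13 CPM. Cyp19a1, which encodes aromatase, went the other way, at 24.7 to 28.9 against 28.7 to 38.2 CPM in the translatome. In the transcriptome it was at 26.2 to 33.5 CPM in het and 40.7 to 47.8 CPM in WT, without overlap. More such cells and more RNA per cell cannot be told apart in these libraries, and whether they have a part in the members' values was not tested.

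In the GV transcriptome 0 of 41 members were called between genotypes in edgeR and in DESeq2, where 2.55% of all genes were called in edgeR. An unadjusted edgeR p under 0.05 was found for 2 of 41 members and for 4390 of all 22409 genes. Among the smallest p-values were those of Ndufv1 (log2 -0.87 ± 0.29, edgeR adjusted p = 0.126) and Ndufs4 (0.57 ± 0.28). For Ndufv1 both het libraries lay below both WT libraries. The 7 core subunits had a median of -0.23 with 6 below 0, and the accessory groups had medians from 0.24 to 0.36. All coding members had a median of 0.26 and all genes one of -0.04.

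Whether the genotype difference itself differed between fractions was tested as an interaction. It was called for 0 of 41 members in edgeR and in DESeq2, and in edgeR for 0.0134% of all genes, while 5 of 41 members and 1999 of all 22409 genes had an unadjusted p under 0.05. Among the lowest p-values were those of Ndufv1, at a difference of 1.24 ± 0.41 (edgeR adjusted p = 0.458), and of the pseudogene Ndufb4c, at 0.87 ± 0.37 (edgeR adjusted p = 0.537). For Ndufa8 both het libraries were above WT in the translatome and below WT in the transcriptome. All 7 core subunits had a difference above 0, from 0.01 for Ndufs1 upward, with a median of 0.76. All coding members had a median of 0.54 and all genes one of 0.14. The lean was not confined to the core. A difference above 0 was found for 35 of the 38 coding members, 40 of 42 gene identifiers for complexes II to V and 57.7% of all genes.

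**Figure D3:**
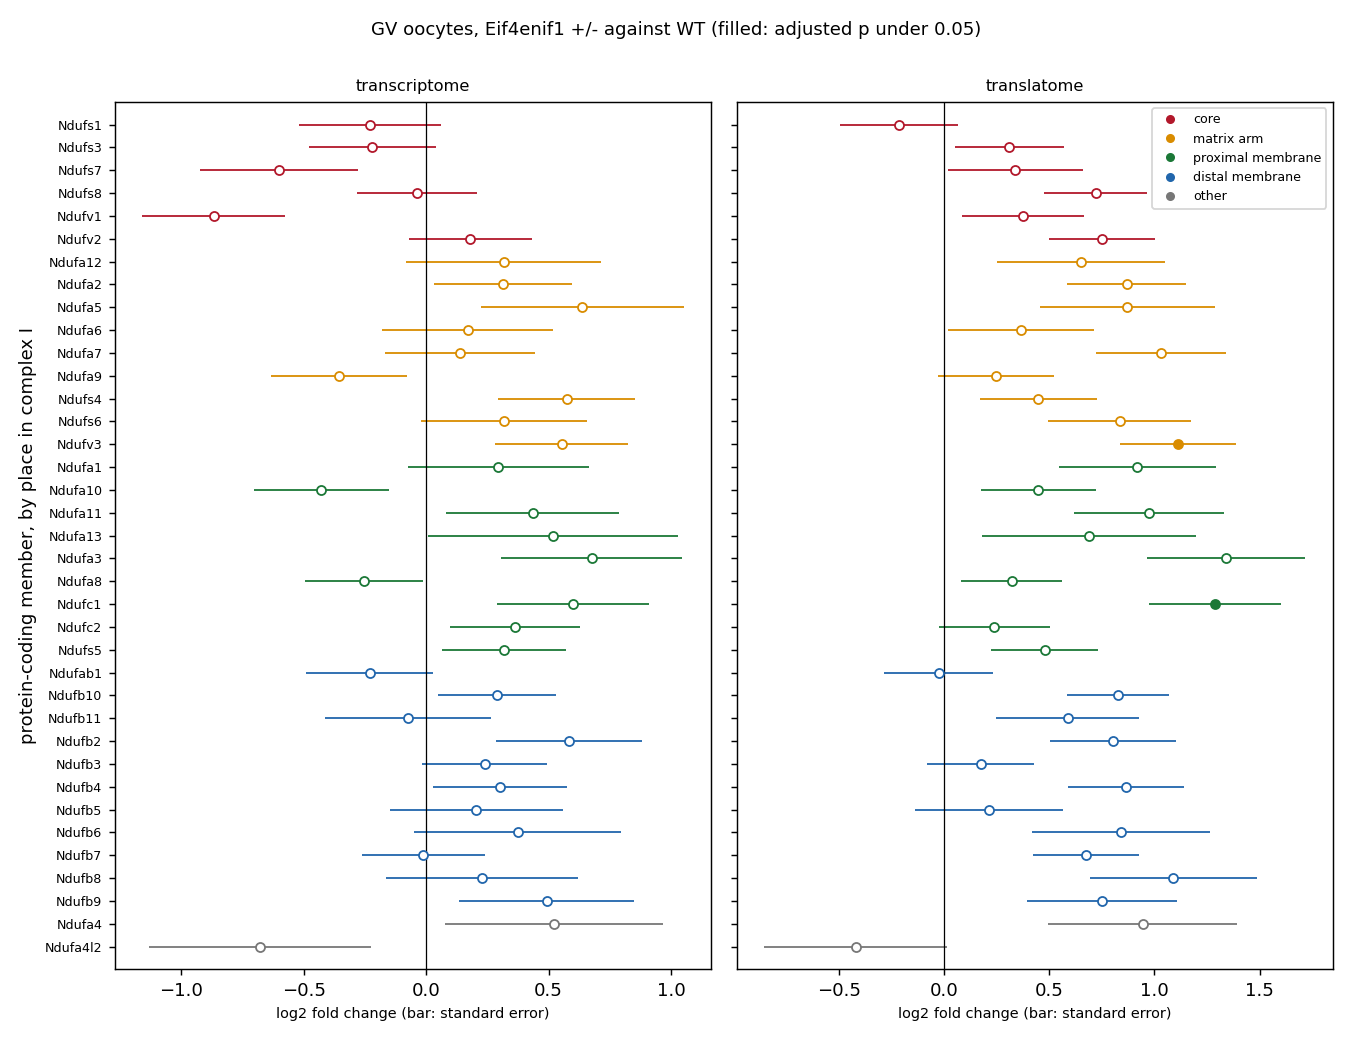
Log2 fold change of het against WT oocytes for 37 coding members (point, with its standard error as a bar) in the transcriptome on the left and the translatome on the right, with places in complex I by colour. In the transcriptome no point is filled and most core subunits lie below 0, and in the translatome the points drawn lie above 0 except those of Ndufs1, Ndufab1 and Ndufa4l2, with Ndufc1 and Ndufv3 filled.

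The largest changes of complex I genes were between the WT 1-cell and 2-cell stages. The 2-cell embryos had been kept in vitro for 24 h and the 1-cell embryos were untreated. Stage and culture therefore cannot be told apart in this comparison. Of 40 members tested 15 were higher and 4 lower in 2-cell embryos, where 28.5% of all 23656 genes were called higher and 17.9% lower. Core subunits accounted for 4 of the higher and 0 of the lower genes, matrix arm accessory subunits for 5 and 2, proximal membrane arm subunits for 2 and 1, and distal ones for 4 and 1. Of 42 gene identifiers for complexes II to V 25 were higher and 2 lower. The median of the coding members was 0.84 beside 0.59 for all genes. Short genes as a whole rose more. Coding genes with at most 1000 bases of exon had a median of 2.36, and 42.6% were called higher. The 9 members of that length had 0.57, and 2 were called higher. From 1000 to 2000 bases the medians were 1.65 for all and 1.71 for members, with 38.3% and 8 of 15 called higher. From 2000 to 4000 bases they were 0.85 and 1.48, and over 4000 bases -0.12 and 0.34. The part that length has here was not tested. Scaling by RLE in place of TMM shifted the coding median by 0.18 and called 15 higher and 3 lower.

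Among the higher genes, Ndufb10 of the distal membrane arm went from 3.56, 2.18 and 1.23 CPM at the 1-cell stage to 103, 86.7 and 77.5 CPM (log2 5.26 ± 0.83, edgeR adjusted p = 2.790e-04). Ndufc1 went from 2.47, 1.67 and 1.08 to 45.3, 47.8 and 42.9 CPM (4.70 ± 0.72). Ndufa7 went from 3.97, 2.12 and 1.70 to 90.9, 103 and 88.6 CPM (5.18 ± 0.90). In all 3 genes every 2-cell library was many times above every 1-cell library.

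Core subunits Ndufs7 and Ndufs8 rose as well, while Ndufs3 was at 63.7, 38.7 and 25.0 CPM before and 40.4, 31.2 and 36.2 CPM after, with overlap (log2 -0.24 ± 0.47, not called). Ndufs8, a carrier of iron-sulfur clusters, was at 12.7, 4.36 and 1.75 CPM in 1-cell and at 295, 212 and 205 CPM in 2-cell embryos (5.25 ± 1.08, edgeR adjusted p = 0.00158), which made it 1 of the most abundant members at that stage. Ndufs7 (chr10:80249121-80256794, plus strand), which holds the last iron-sulfur cluster before ubiquinone, went from 3.56, 0.770 and 1.34 to 33.5, 38.5 and 27.1 CPM (4.13 ± 0.74). Its 1-cell libraries spread over a wide range, and all 3 are far below the 2-cell range. Ndufv2 rose by 1.48 ± 0.46 on the log2 scale. Accessory subunits that also rose were Ndufa2, Ndufa9, Ndufa11, Ndufa12, Ndufb7, Ndufb9, Ndufb11 and Ndufv3, with log2 changes from 1.71 to 4.63.

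The 4 genes that fell included Ndufab1 and Ndufa10, the members with the highest mean CPM at the 1-cell stage. Per kb of exon, Ndufb6 and Ndufa4 stood above them there, at 188 ± 32.5 and 175 ± 53.3 CPM per kb (mean ± SD, n = 3) against 118 ± 21.7 for Ndufa10 and 60.7 ± 5.89 for Ndufab1. Ndufa10 (chr1:92439010-92473860, minus strand), a kinase-like subunit on the matrix side of the membrane arm, was at 394, 463 and 319 CPM in 1-cell and at 19.2, 17.7 and 17.7 CPM in 2-cell embryos (log2 -4.43 ± 0.68, edgeR adjusted p = 2.461e-04). Ndufab1, the mitochondrial acyl carrier protein, which serves mitochondrial fatty acid synthesis besides complex I, went from 386, 464 and 405 to 95.7, 98.5 and 91.4 CPM (-2.13 ± 0.56, edgeR adjusted p = 0.00679). Ndufs4, whose loss causes Leigh-like disease in mice, went from 40.1, 55.4 and 43.3 to 16.0, 11.1 and 20.8 CPM (-1.53 ± 0.40). Ndufa6, an LYR-motif subunit that binds an acyl carrier protein, went from 36.0, 48.9 and 35.2 to 14.7, 15.8 and 17.99 CPM (-1.31 ± 0.50, edgeR adjusted p = 0.0421), a call that 1 of 12 alternative settings kept.

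Ndufa4 and Ndufb6, the other abundant members of the 1-cell stage, were not called. Ndufa4 was at 156, 282 and 286 CPM before and at 180.3, 222 and 219.7 CPM after. Ndufb6 was at 109, 148 and 114 CPM before and at 183, 179 and 205 CPM after. Altogether 11 of the 38 coding members were under 10 CPM in all 3 WT 1-cell libraries, and 7 of those 11 were at 10 CPM or more in all 3 WT 2-cell libraries. In bulk embryos a change in 1 gene's share of the RNA cannot be told apart from a change in the amount of all other RNA.

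Promoter sequence was looked at because these members changed in opposite directions at 1 stage. RefSeq promoter windows (GRCm38.p6, 250 bases before to 50 after the start) were given for 33 of the 38 coding members, among them 12 that rose and 4 that fell. The NRF1 core GCGCATGC, searched on both strands like the other motifs, was in 3 member windows and in 2.71% of all 32851 windows. The ETS core CCGGAAG was in 4 and in 8.86%, the YY1 core AAGATGGCG in 5 and in 1.4%, and the SP1 core GGGCGG in 15 and in 35.7%. Matches to the SP1 core were in 3 of the 12 windows of genes that rose and in 3 of the 4 of genes that fell. Such matches are letters in a window and do not show binding.

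Stretches of 30 bases around matches upstream of the start are shown for members called in opposite directions, 5′ to 3′ on the strand of the gene with the match in capitals. GCATGCGC and CCGCCC are the NRF1 and SP1 cores read from the other strand. In Ndufa11 the NRF1 core is also matched from the other strand, at overlapping bases of the same palindromic stretch. The windows of Ndufa10, Ndufv2 and Ndufv3 each hold another SP1 match, and that of Ndufa6 holds an SP1 match, which are not shown.
Ndufa11, rose, NRF1 core, chr17:56717691-56717720, plus strand: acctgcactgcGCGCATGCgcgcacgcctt
Ndufa6, fell, NRF1 core, chr15:82354356-82354385, minus strand: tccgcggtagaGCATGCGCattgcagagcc
Ndufv3, rose, SP1 core, chr17:31519964-31519993, plus strand: cccaaatcggagGGGCGGgactttcagcgg
Ndufv2, rose, SP1 core, chr17:66101701-66101730, minus strand: gcctcgtcctcaGGGCGGggactcagctgg
Ndufab1, fell, SP1 core, chr7:122101917-122101946, minus strand: agccgctagggtCCGCCCgcgcccgcgcag
Ndufa10, fell, SP1 core, chr1:92473888-92473917, minus strand: caagcctaagctCCGCCCcttccctctggc
Both motifs occurred upstream of genes of either direction. The windows of Ndufb10, Ndufa7 and Ndufs4 held no match to the NRF1 or SP1 core.

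Between het and WT embryos no member was called at either stage. At the 1-cell stage 0 of 40 members passed in edgeR and in DESeq2, and in edgeR 0% of all 23656 genes did. Unadjusted edgeR p-values under 0.05 were found for 4 members and 889 genes. The smallest p-values were those of abundant members, Ndufb6 at 109, 148 and 114 CPM in WT and 39.4, 78.0 and 35.0 CPM in het (log2 -1.28 ± 0.41), Ndufab1 at 386, 464 and 405 against 68.0, 264 and 57.2 CPM (-1.69 ± 0.55), and Ndufa4 at 156, 282 and 286 against 50.8, 189 and 33.4 CPM (-1.41 ± 0.53). In each the lowest values were those of het libraries 1 and 3, which have the flat profile. Het library 2 lay within the WT range for Ndufa4 and below it for the other genes. With library 2 left out 2 members were called, and with both flat libraries left out none was.

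At the 2-cell stage 0 of 40 members passed in edgeR and in DESeq2, where 0.00423% of all genes, that is 1 gene, did in edgeR. Unadjusted edgeR p-values under 0.05 were found for 0 members and 1318 genes. Coding members had a median of -0.05. Ndufv3 had the smallest p, at 15.4, 27.0 and 23.3 CPM in WT and 1.23, 10.5 and 13.5 CPM in het (log2 -1.38 ± 0.82, adjusted p of 1 in edgeR). Ndufa10 had a change of 0.86 ± 0.59 and the pseudogene Ndufs6b one of -1.37 ± 0.88. With standard errors of this size differences as large as these were not detectable, and without het 2-cell library 1 there was again no called member.

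Arrested het embryos had been in culture as long as het 2-cell embryos, and the comparison between them asked how the genes stood where division had not occurred. Of 40 members 8 were lower in arrested embryos and 0 higher, where 4.55% of all genes were called lower. The coding median was -0.97, beside -0.01 for all genes, and 31 of 38 coding members had a change below 0. In 11 of the 38 all arrested libraries lay under all het 2-cell libraries, which 15.6% of all genes showed. RLE scaling moved the coding median by -0.15. All 7 core subunits and all 9 matrix arm accessory subunits had a change below 0, with medians of -1.72 and -1.06. Of 42 gene identifiers for complexes II to V 10 were lower and 0 higher.

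Ndufs7 had the largest fall, from 10.9, 50.3 and 35.5 CPM in het 2-cell to 1.13, 3.60 and 1.39 CPM in arrested embryos (log2 -3.96 ± 0.74, edgeR adjusted p = 0.0115). Ndufc1 fell from 9.98, 59.4 and 52.3 to 1.22, 4.58 and 5.18 CPM (-3.46 ± 0.67, edgeR adjusted p = 0.0129). These groups do not overlap, although het 2-cell library 1 lies nearer to the arrested embryos than to the other 2-cell libraries.

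Ndufb9, the other LYR-motif subunit, was at 13.7, 77.6 and 37.4 CPM against 10.9, 6.95 and 12.1 CPM (-2.10 ± 0.51), again without overlap. Ndufa7 was at 13.2, 107 and 113 CPM against 0.942, 13.3 and 8.58 CPM (-3.35 ± 0.82), and Ndufa12, whose paralog is an assembly factor, at 7.32, 63.7 and 80.1 against 5.56, 15.03 and 2.47 CPM (-2.71 ± 0.73). In these last 2 genes the groups overlap through het 2-cell library 1. Ndufb10, Ndufa2 and the core subunit Ndufs3 completed the set with log2 changes of -2.67 ± 0.73, -2.43 ± 0.68 and -1.72 ± 0.49.

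Of these 8 genes, Ndufs7, Ndufc1, Ndufb9, Ndufa7, Ndufa12, Ndufb10 and Ndufa2 were also among those that rose between the WT 1-cell and 2-cell stages, and Ndufs3 was not. Of all 23656 genes 28.5% were called higher between those stages. That share was not counted among all genes called lower in arrested embryos, so the overlap is a description and not a trait of complex I. The count of called members was 11 without het 2-cell library 1, 6 without arrested library 1, and 0 without het 2-cell library 2 or library 3. It rose to 14 without arrested library 2 and was 4 without both flat het 1-cell libraries. A fit of the arrested and het 2-cell libraries alone called 0 members.

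**Figure D4:**
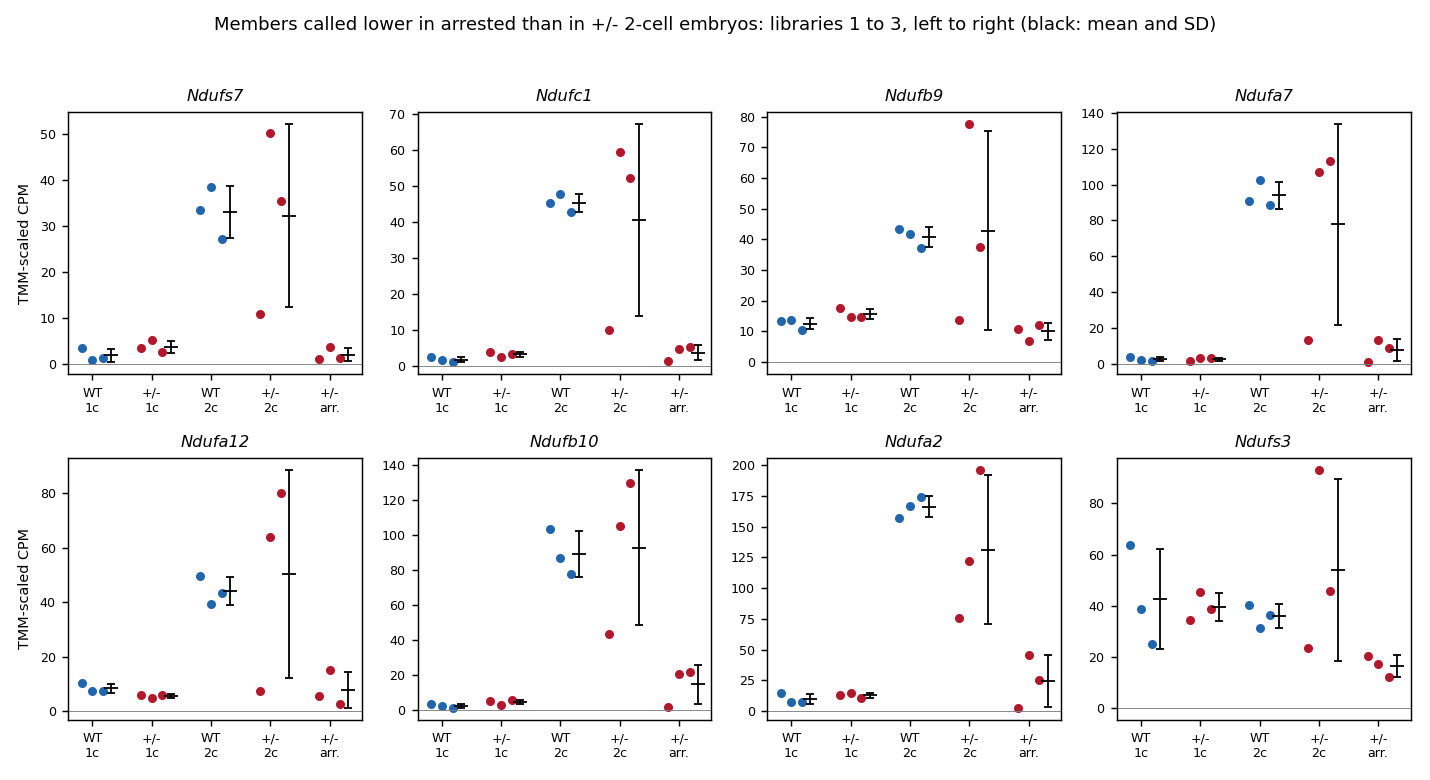
TMM-scaled CPM of the 8 members called lower in arrested than in het 2-cell embryos, 1 panel for each gene, with the 3 libraries of each embryo group as points in order of library number and the mean and SD (n = 3) in black. For Ndufs7 the arrested embryos, at 1.13 to 3.60 CPM, sit in the range of the 1-cell embryos, and the first het 2-cell library, at 10.9 CPM, is the lowest of all 2-cell libraries.

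Set against 1-cell embryos, arrested embryos had few called members. The arrested embryos had been in vitro for 24 h and the 1-cell embryos were untreated, so arrest and culture cannot be told apart here. Against WT 1-cell embryos 1 of 40 was higher and 3 were lower, where 14.1% of all genes were called higher and 5.44% lower. With RLE scaling 1 was higher and 1 lower. Ndufb10 was the higher gene, at 3.56, 2.18 and 1.23 CPM in WT 1-cell and 1.41, 20.7 and 21.5 CPM in arrested embryos (log2 2.65 ± 0.74, edgeR adjusted p = 0.0226), and its value in arrested library 1 lies within the WT 1-cell range. Ndufs4 (-1.78 ± 0.40), Ndufab1 (-1.76 ± 0.55) and Ndufa6 (-1.58 ± 0.50) were lower, without overlap. The comparison shares its WT 1-cell libraries with that of the stages, in which these genes changed by -1.53, -2.13 and -1.31. Ndufa10 was at 256, 66.5 and 73.6 CPM in arrested embryos, between the WT 1-cell and 2-cell levels.

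Against het 1-cell embryos 1 of 40 members was higher and 1 lower, where 9.97% of all genes were called higher and 3.91% lower. Ndufs4 was at 56.8, 52.8 and 56.0 CPM in het 1-cell and 15.6, 16.7 and 8.19 CPM in arrested embryos (log2 -2.03 ± 0.41, edgeR adjusted p = 0.00621). Ndufb6 was at 39.4, 78.0 and 35.0 against 239.6, 202 and 103 CPM (1.84 ± 0.42, edgeR adjusted p = 0.0118). Neither overlapped, and neither was called without both flat het 1-cell libraries. Without arrested library 1, which has few 2-cell-stage transcripts, the counts rose to 13 against WT 1-cell and 8 against het 1-cell embryos. Against WT 1-cell embryos the count was 1 without WT 1-cell library 2 or 3 and 2 without arrested library 2 or both flat libraries. Against het 1-cell embryos it was 1 without het 1-cell library 1 or 3 and 4 without arrested library 2 or 3. Fits of the compared groups alone called 0 members in both.

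The coding members called in no comparison were the core subunit Ndufv1, the matrix arm subunits Ndufa5 and Ndufs6, Ndufa13 and Ndufc2 of the proximal and Ndufb2, Ndufb3, Ndufb5 and Ndufb8 of the distal membrane arm, and Ndufa4 and Ndufa4l2. Ndufv1 was at 1.44, 3.02 and 0.925 CPM in WT 1-cell and 7.20, 16.1 and 10.8 CPM in WT 2-cell embryos, with no overlap (log2 2.66 ± 1.24, edgeR adjusted p = 0.0882). Ndufb3 was at 15.3 to 20.5 CPM in WT 1-cell and 16.3 to 22.8 CPM in WT 2-cell embryos, which overlap. Ndufb5 was at 25.8 to 61.9 CPM before and 10.9 to 22.1 CPM after, lower in every 2-cell library without passing the test. Ndufa4l2 was at no more than 5.22 CPM in any library of the WT groups.

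**Figure D5:**
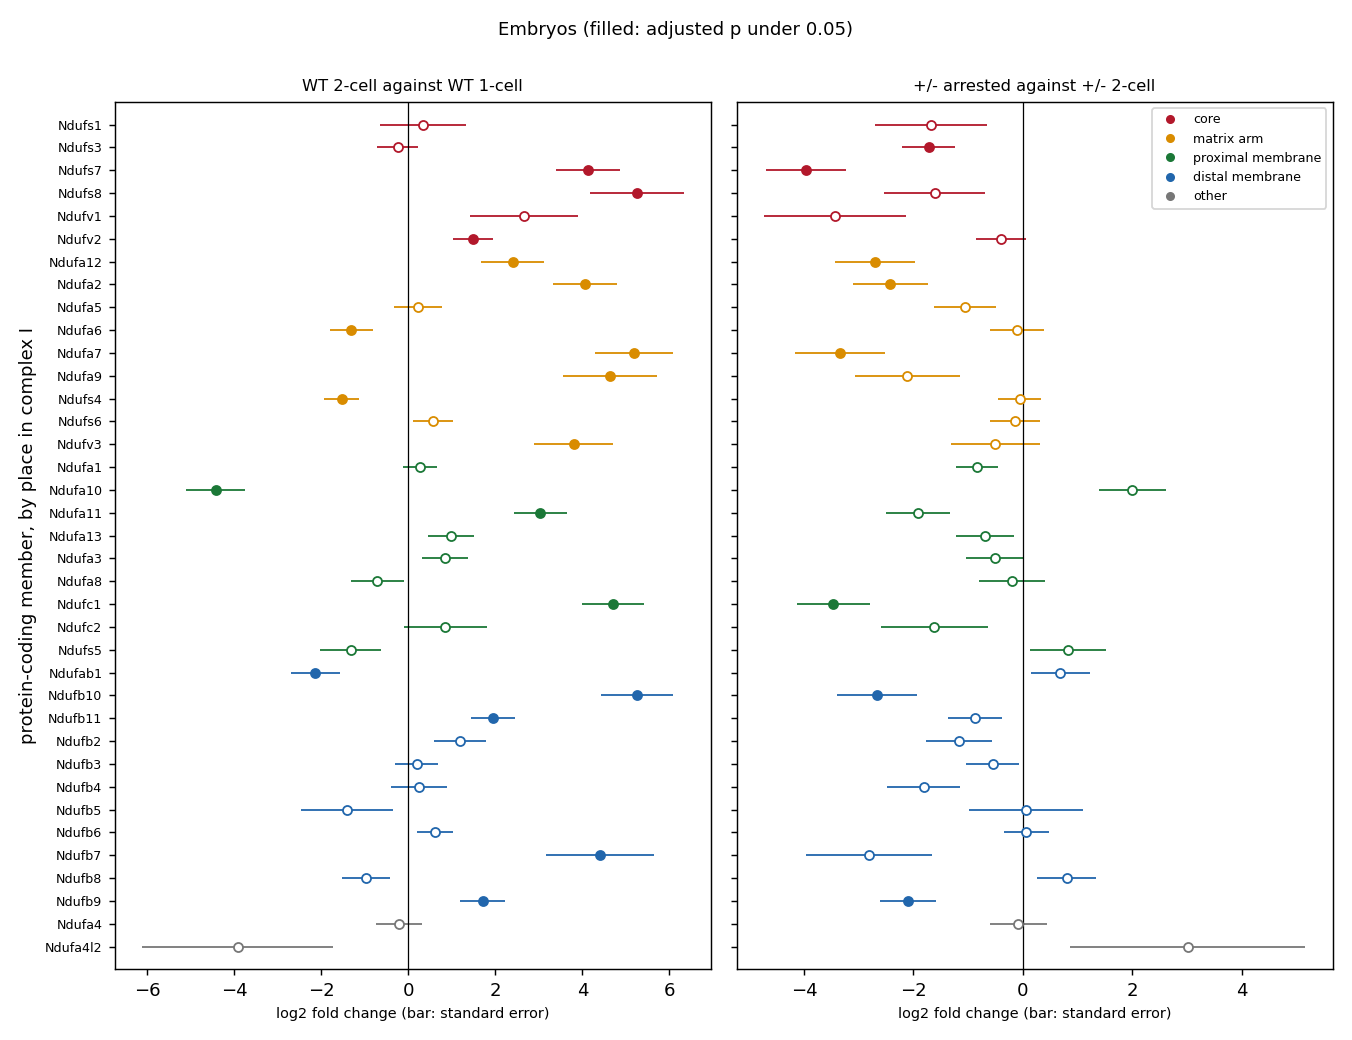
Log2 fold change of 37 coding members (point, with its standard error as a bar) from WT 1-cell to WT 2-cell embryos on the left and from het 2-cell to arrested het embryos on the right, coloured by place in complex I, filled where the adjusted p was under 0.05. On the left most filled points lie above and 4 below 0, Ndufa10 lowest at -4.43, and on the right all 8 filled points lie below 0, Ndufs7 lowest at -3.96.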

How the data were processed

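The authors deposited raw counts per gene in 2 tables, 8 GV and 15 embryo libraries. Per the submitters' processing notes the build was mm10 and the tools included featureCounts 1.6.5, HISAT2 2.1.0 and Trim Galore 0.6.4. The sources used here do not state strand, multi-mapping or duplicate settings. Neither molecular identifiers nor separate animals are named, so each p-value reflects only sample-to-sample spread, part or all of which may be technical. Exons of 17 of 38 coding members overlap another gene, and reads there cannot be assigned.

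Each table was fitted whole in edgeR 4.0.16 (R 4.3.3) with filterByExpr, TMM, the quasi-likelihood test and Benjamini-Hochberg adjustment, tested on simulated data. Levels are TMM-scaled CPM. SE comes from the F statistic. Alternatives used DESeq2 1.42.0, RLE scaling, no filter, fewer groups, a replicate block and left-out libraries.

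Both fractions of a GV sample carry 1 specimen number in the descriptions. Deviations of these pairs correlated at 0.265 in het and 0.0492 in WT oocytes over 9075 genes.

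Members and lists were chosen with earlier results of these data known. Named were Eif4enif1, up to 8 called members per comparison by smallest p (the 3 smallest where none was called), the core subunits in oocytes, the 3 highest and lowest members per kb, and pseudogene copies. Others were named after their values were seen. The values of 1 coding member are not reported here and not drawn by name, although counts and medians over the members include it.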

Additional observations from a re-analysis of the deposited data

How the results depend on the processing

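The WT 2-cell against 1-cell count of 19 fell to between 14 and 18 when single libraries were left out. It stayed within 1.5 times under each setting run. Counts of 0 stayed at 0 for the GV transcriptome, the difference between fractions and het against WT 2-cell embryos, and ranged from 0 to 2 for 1-cell embryos with single libraries left out. Elsewhere counts moved. For het against WT in the translatome (3) they were 8 in DESeq2, 15 without the filter, 1 with the replicate block and 0 to 14 with single libraries left out. For the fractions in WT (16) they were 26 without the filter, 6 with only the groups compared and 2 to 25, and in het (2) 4, 4 and 0 to 3. Pairing fractions by oocyte sample, the replicate block gave 19 and 3. For arrested against het 2-cell embryos (8) they were 14 in DESeq2, 0 with only the groups compared, 3 with the replicate block, 4 without both flat libraries and 0 to 14. Against WT 1-cell embryos (4) they were 2 with RLE scaling, 0 with only the groups compared, 1 with the block, 2 without both flat libraries and 1 to 13, and against het 1-cell embryos (2) they were 0 with only the groups compared, 2 with the block, 0 without both flat libraries and 1 to 8. Numbers of het and WT libraries, and of embryo libraries, are shared only as numbers. Of 516 values of named members under alternatives 411 kept direction and side of the threshold, 103 lost and 2 gained the call, and 0 reversed. The cause was not tested. A count of 0, found for 4 coding members in each of arrested libraries 1 and 2, allows up to 3 counts.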

Other observations

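Ndufb1-ps, which the symbol rule left out, is the symbol under which the tables list the locus of the distal membrane arm subunit Ndufb1. It was among the abundant complex I loci of the GV transcriptome, at 282 and 244 CPM in WT and 235 and 324 CPM in het, and at 141 and 136 CPM in the WT translatome. WT 1-cell embryos had 13.8, 8.60 and 6.94 CPM and WT 2-cell embryos 36.4, 34.1 and 29.2 CPM, and arrested embryos had 2.92, 4.22 and 10.4 CPM. The 7 mitochondrially encoded subunits had a median log2 change of 0.38 between arrested and het 2-cell embryos, and 0 were called. Against WT 1-cell embryos all 7 were called higher in arrested embryos, with a median of 2.99. WT 2-cell embryos also had all 7 above WT 1-cell embryos, with a median of 2.07 and 4 called higher. Of the 17 assembly factors 7 were higher and 2 lower in WT 2-cell than in WT 1-cell embryos, and 4 were lower in arrested than in het 2-cell embryos.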
